A study of Homo sapiens with 7 samples.

Results

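Chromatin bound by the elongation factor SPT5 was compared with chromatin that carries O-GlcNAc, a single-sugar modification of proteins, in BJAB, an established line of human B cells that the labels trace to Burkitt's lymphoma. The comparison used every peak on chromosomes 1 to 22 in the SPT5 list (54885 peaks) and in the O-GlcNAc list (8988 peaks), which together make 63873 of the 132893 peaks in the 5 lists of the series. Both targets were precipitated from fixed chromatin and the DNA was sequenced (ChIP-seq), with SPT5 antibody sc-28878 and O-GlcNAc antibody RL2, sc-59624, both from Santa Cruz. All libraries share this 1 cell line, for which the labels give no treatment and no genotype and state passage as multiple. Cells were fixed in 1% formaldehyde for 5 min and 10 µg of antibody was used for each precipitation. Each target has 1 library and no replicate, so no difference below could be set against replicate spread and no test between conditions was possible. The 95% intervals given are Wilson intervals for shares and order-statistic intervals for medians, and they cover counting error only.

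SPT5 is the large subunit of the DSIF complex, which helps to hold RNA polymerase II (Pol II) in the pause just downstream of promoters and then travels with the polymerase through the gene. O-GlcNAc is attached to serine and threonine residues of proteins in the nucleus and cytoplasm by the transferase OGT and is removed by the hydrolase OGA, and the repeats in the largest subunit of Pol II are among its known carriers. RL2 binds many proteins that bear the sugar, so a peak places the modification on chromatin without naming the protein that bears it. TRIM28, also mapped in these cells, is a chromatin corepressor that also takes part in pausing.

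Most O-GlcNAc peaks lay on SPT5, while few SPT5 peaks carried O-GlcNAc. An O-GlcNAc peak overlapped 7766 of 54885 SPT5 peaks by at least 1 bp, 14.1% (13.9 to 14.4), and 47119 SPT5 peaks had none. In the other direction 7947 of 8988 O-GlcNAc peaks, 88.4% (87.7 to 89.1), overlapped SPT5, and 1041 did not. The lists differ in length, so these shares describe the same 8126 overlapping pairs on different denominators. Nearly all pairings were simple: 7770 O-GlcNAc peaks met exactly 1 SPT5 peak, 175 met 2 and 2 met 3.

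SPT5 peaks reached far greater widths than O-GlcNAc peaks. SPT5 widths ran from 195 to 27057 bp with a median of 413 bp, and 1646 peaks had the smallest width. O-GlcNAc widths ran from 167 to 1719 bp with a median of 372.5 bp. The SPT5 list covered 36.8 Mb and the O-GlcNAc list 3.68 Mb. The height of a peak is given here as the authors' fold enrichment over background, which is comparable only within 1 list. It ran from 1.27 to 28.1 (median 3.30) in the SPT5 list and from 1.26 to 18.5 (median 3.87) in the O-GlcNAc list.

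O-GlcNAc was scarce on narrow SPT5 peaks and most frequent on those of intermediate width. Of 32207 SPT5 peaks under 500 bp, 874 carried O-GlcNAc, 2.71% (2.54 to 2.90). The share was 25.5% (24.7 to 26.2) of 13683 peaks of 500 to 1000 bp and 40.1% (38.9 to 41.3) of 6554 peaks of 1000 to 2000 bp. It was 32.0% (30.1 to 33.8) of 2441 peaks over 2000 bp, below the class of 1000 to 2000 bp and with an interval apart from it. Among the 8988 strongest SPT5 peaks by −log10 p the shares were 56.4%, 69.5%, 68.0% and 52.2%, so the steep rise from narrow to intermediate peaks was smaller there and the widest class was again below its neighbour. Narrow peaks under 500 bp made up 58.7% of the SPT5 list but 11.3% of the SPT5 peaks with O-GlcNAc. Peaks of 500 to 1000 bp made up 24.9% of the list and 44.8% of those with O-GlcNAc.

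Finer width bins placed the maximum between 750 and 2000 bp. The share with O-GlcNAc was 1.24% under 250 bp, 3.53% from 250 to 500 bp, 18.8% from 500 to 750 bp and 36.7% from 750 to 1000 bp. It was 40.3% from 1000 to 1500 bp and 39.8% from 1500 to 2000 bp. Above that it was 36.4% (33.9 to 38.9) from 2000 to 3000 bp, 26.4% (23.3 to 29.8) from 3000 to 5000 bp, and 24.0% (19.5 to 29.1) of the 300 peaks of 5000 bp and more. The class boundaries fell on gradual slopes. The share was 7.15% in peaks of 450 to 500 bp and 9.42% in those of 500 to 550 bp. It was 42.8% just below 1000 bp, from 950 bp on, and 39.4% in the next 50 bp above it. It was 36.4% (55 of 151) just below 2000 bp and 29.8% (37 of 124) just above it.

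A wide peak offers more room for an O-GlcNAc peak, so the number per length of SPT5 peak was also taken. There were 89.4 O-GlcNAc peaks per Mb of SPT5 peak under 500 bp, 364 per Mb at 500 to 1000 bp, 317.3 per Mb at 1000 to 2000 bp and 107.6 per Mb over 2000 bp. The density was highest at 750 to 1000 bp, 430.3 per Mb, and was 39.1 per Mb in peaks of 5000 bp and more. O-GlcNAc peaks covered 2.06%, 14.4%, 14.4% and 4.56% of the bases of the 4 width classes, from narrow to wide.

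**Figure D1:**
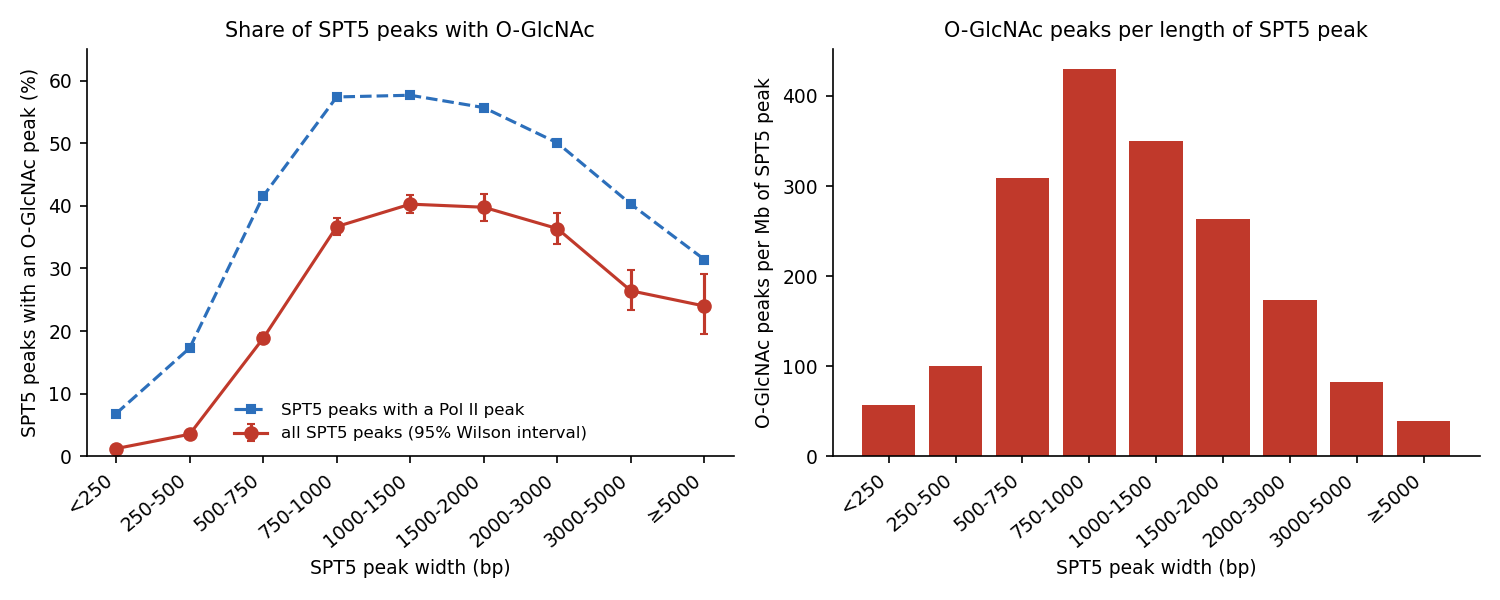
Left, the share (%) of SPT5 peaks that an O-GlcNAc peak overlaps, in 9 bins of SPT5 width (bp). Points are for all SPT5 peaks, with 95% Wilson intervals, and for those that also overlap Pol II, without intervals. Right, O-GlcNAc peaks per Mb of SPT5 peak in the same bins. The share is 1.24% in the narrowest bin, 40.3% at 1000 to 1500 bp and 24.0% at 5000 bp and more, and the density is highest at 750 to 1000 bp.

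SPT5 peaks with O-GlcNAc were mostly sites of Pol II. A Pol II peak overlapped 91.6% of SPT5 peaks with O-GlcNAc and 18.5% of those without. By width class, from narrow to wide, the share with Pol II was 51.9%, 94.7%, 98.6% and 98.97% where O-GlcNAc was present, and 7.64%, 33.8%, 49.7% and 56.8% where it was not. TRIM28 overlapped 71.1% of SPT5 peaks with O-GlcNAc and 24.1% of those without. OGA, the enzyme that removes the sugar, overlapped 8.01% and 2.42%. The difference in these 2 targets had the same direction in each width class: TRIM28 was at 34.3% against 16.4% under 500 bp and at 89.2% against 49.8% over 2000 bp, and OGA at 2.97% against 1.35% and at 18.1% against 8.85%.

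Without Pol II, O-GlcNAc was rare on SPT5 whatever the width. It was found on 649 of 39037 SPT5 peaks that no Pol II peak overlapped, 1.66%, and on 7117 of 15848 that Pol II overlapped, 44.9%. Peaks without Pol II were mostly low: Pol II overlapped 4.57% of the lowest 10% of SPT5 peaks by fold enrichment and 98.6% of the highest 10%. With Pol II and an SPT5 fold enrichment of 1.27 to 4.25, the O-GlcNAc share by width class was 7.46%, 13.2%, 8.57% and 7.94%. The contrasts by Pol II, TRIM28 and OGA were not split by SPT5 height. Among SPT5 peaks with Pol II the share by width class was 15.9%, 48.9%, 57.0% and 45.0%, and among those without Pol II it was 1.43%, 2.64%, 1.89% and 1.10%. The lower share in the widest class was therefore also present where Pol II was called: with Pol II it was 57.7% at 1000 to 1500 bp, 50.05% at 2000 to 3000 bp and 31.4% at 5000 bp and more.

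Most SPT5 peaks with O-GlcNAc held a single O-GlcNAc peak. Of 7766, 7426 held 1, 323 held 2, 15 held 3, 1 held 4 and 1 held 5. The 340 with 2 or more were 4.38% (3.95 to 4.86). None of the 874 under 500 bp held 2 or more, with an upper limit of 0.438% by the Wilson interval. The share with 2 or more was 0.976% (34 of 3483) at 500 to 1000 bp, 7.34% (193 of 2629) at 1000 to 2000 bp and 14.5% (113 of 780; 12.2 to 17.1) over 2000 bp. Among the 72 with O-GlcNAc of 5000 bp and more it was 25.0% (16.4 to 36.1). Even in very wide domains with O-GlcNAc, 1 peak was thus the usual number. Those 72 were 24.0% of the 300 SPT5 peaks of that width, and the rest held none.

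Pol II and TRIM28 divided wide SPT5 peaks into more pieces than O-GlcNAc did. Among SPT5 peaks over 2000 bp that held any Pol II, 56.1% (963 of 1716) held 2 or more Pol II peaks, with up to 16. For TRIM28 the share was 54.9% (836 of 1524), with up to 9. OGA was near O-GlcNAc, at 11.5% (33 of 288; 8.28 to 15.7) with up to 4. At 1000 to 2000 bp the shares were 20.2% for Pol II, 24.5% for TRIM28 and 2.20% for OGA. The lists differ in length and in peak width, which also set how often 1 region is split, and their part in this difference was not tested.

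**Figure D2:**
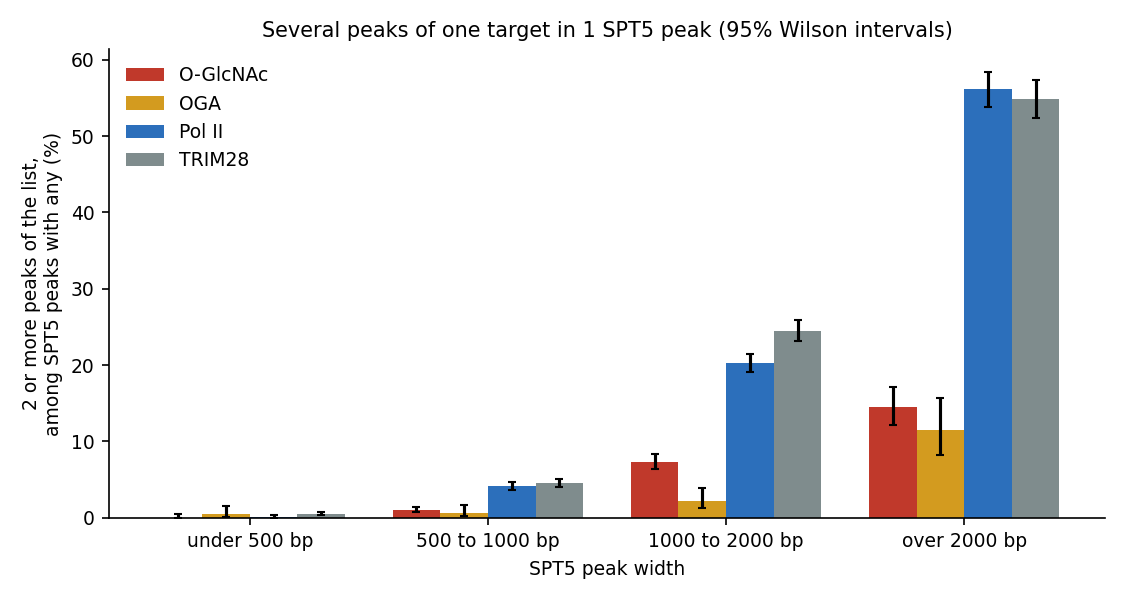
The share (%) of SPT5 peaks holding 2 or more peaks of O-GlcNAc, OGA, Pol II or TRIM28, among SPT5 peaks holding any peak of that target, by width class of the SPT5 peak (bars start at 0, lines are 95% Wilson intervals). Over 2000 bp the shares are 14.5% for O-GlcNAc, 11.5% for OGA, 56.1% for Pol II and 54.9% for TRIM28.

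Where an SPT5 peak held several O-GlcNAc peaks, these often lay on both sides of the SPT5 summit, the position of highest SPT5 signal. In the 323 SPT5 peaks with exactly 2, the SPT5 summit lay between the O-GlcNAc summits in 183, 56.7% (51.2 to 62.0). The nearer of the pair was a median of 142 bp from the SPT5 summit and the farther 626 bp. Over all 360 neighbouring O-GlcNAc summits within 1 SPT5 peak, the spacing had a median of 626 bp (592 to 663) and ran from 105 to 10643 bp. By class, from 500 to 1000 bp upward, the median spacing was 439.5, 556.5 and 997 bp.

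Wide SPT5 peaks with several O-GlcNAc peaks were little different in height from those with 1. Over 2000 bp the median SPT5 fold enrichment was 9.96 (9.74 to 10.3) with 1 and 10.75 (10.0 to 11.9) with 2 or more, at median widths of 2547 and 2802 bp. At 1000 to 2000 bp it was 9.70 (9.59 to 9.88) with 1 and 9.12 (8.75 to 9.62) with 2 or more, at widths of 1280 and 1521 bp. The direction of the difference in height was thus opposite in these classes, and the intervals overlap in both.

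The SPT5 peaks with 5 and with 4 O-GlcNAc peaks, and the widest of the 15 with 3, were unlike one another. The first, on chromosome 16 from 46390737 to 46393584 (build hg19, which is used throughout), held 5 O-GlcNAc peaks. It was low, with an SPT5 fold enrichment of 1.60 and O-GlcNAc fold enrichments of 1.31 to 1.32, and it overlapped no Pol II, TRIM28 or OGA peak. The second, on chromosome 11 from 65624304 to 65628777, was 4474 bp wide with a fold enrichment of 14.5. Its 4 O-GlcNAc peaks had summits 130, 1315, 2259 and 2638 bp from the SPT5 summit, all on the same side, and the nearest was the highest (5.18 against 2.19, 2.29 and 1.85). It also held 3 Pol II, 4 TRIM28 and 1 OGA peak. The third, on chromosome 7 from 100025551 to 100034538, was 8988 bp wide and had O-GlcNAc summits at 400 bp on 1 side of the SPT5 summit and at 469 and 1413 bp on the other.

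The 2 widest SPT5 domains with O-GlcNAc held few O-GlcNAc peaks. Of the 300 SPT5 peaks of 5000 bp and more, 24.0% carried O-GlcNAc, against 14.1% of all SPT5 peaks. Their number per length was low, 39.1 O-GlcNAc peaks per Mb against 221 per Mb over all SPT5 peaks. The widest of all, 27057 bp on chromosome 9 from 130719708 to 130746764, had a fold enrichment of 13.8 and held 6 Pol II, 5 TRIM28 and 2 OGA peaks. It held 1 O-GlcNAc peak, of 259 bp and fold enrichment 4.34, with its summit 159 bp from the SPT5 summit and 87.5% of the way along the domain. The next widest with O-GlcNAc, 23653 bp on chromosome 1 from 8916477 to 8940129, held 2, at 481 bp on 1 side of the SPT5 summit and 577 bp on the other. The widest SPT5 peak without O-GlcNAc was of similar size, 23369 bp on chromosome 19 from 35818420 to 35841788, with a fold enrichment of 18.5, 7 Pol II peaks and 7 TRIM28 peaks. The next, 21542 bp on chromosome 17 from 80193538 to 80215079, had a fold enrichment of 7.74.

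O-GlcNAc peaks were usually contained in the SPT5 peak. Of the 8126 pairs, the O-GlcNAc peak lay wholly inside the SPT5 peak in 6646 (81.8%), crossed an edge in 1394 (17.2%) and covered the SPT5 peak in 86 (1.06%). The contained share was 21.9% under 500 bp, 82.0% at 500 to 1000 bp, 94.9% at 1000 to 2000 bp and 98.0% over 2000 bp. The overlapping O-GlcNAc peaks had nearly the same median width in each class, 344, 403, 424 and 376 bp. They therefore spanned a falling part of the SPT5 peak, a median of 99.2%, 53.0%, 31.8% and 13.4% of its width.

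O-GlcNAc summits lay near the SPT5 summit but mostly not on it. The O-GlcNAc summit fell inside the SPT5 peak in 7731 pairs (95.1%), and the other 395 were a median of 100 bp beyond its edge. Inside, the median distance from the SPT5 summit was 134 bp (132 to 136), and 13.7% lay within 50 bp. By width class the median distance was 81 bp (76 to 86), 116 bp (114 to 119), 160 bp (157 to 164) and 196 bp (186 to 207). The most filled 50-bp step of distance was 50 to 100 bp under 500 bp, with 36.4% of summits, and 100 to 150 bp in each wider class, with 28.1%, 21.2% and 18.2%. Over 2000 bp only 5.3% of O-GlcNAc summits lay within 50 bp of the SPT5 summit.

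Pol II summits in the same SPT5 peaks lay on the SPT5 summit far more often. Their median distance from it was 26 bp, and by width class 20, 21, 27 and 312 bp (206 to 421 in the widest). The share within 50 bp was 83.5%, 74.2%, 63.1% and 41.7%, against 27.8%, 16.9%, 9.6% and 5.3% for O-GlcNAc. In the widest class the order changed with distance. Within 250 bp lay 62.7% of O-GlcNAc summits but 48.7% of Pol II summits. TRIM28 summits had median distances of 58, 112, 187 and 460 bp and OGA summits 32, 115, 165 and 347.5 bp. Over all summits, O-GlcNAc thus had the shortest median distance of the 4 targets over 2000 bp and the longest under 500 bp. The order over 2000 bp counts every summit of SPT5 peaks that often hold several Pol II or TRIM28 peaks.

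**Figure D3:**
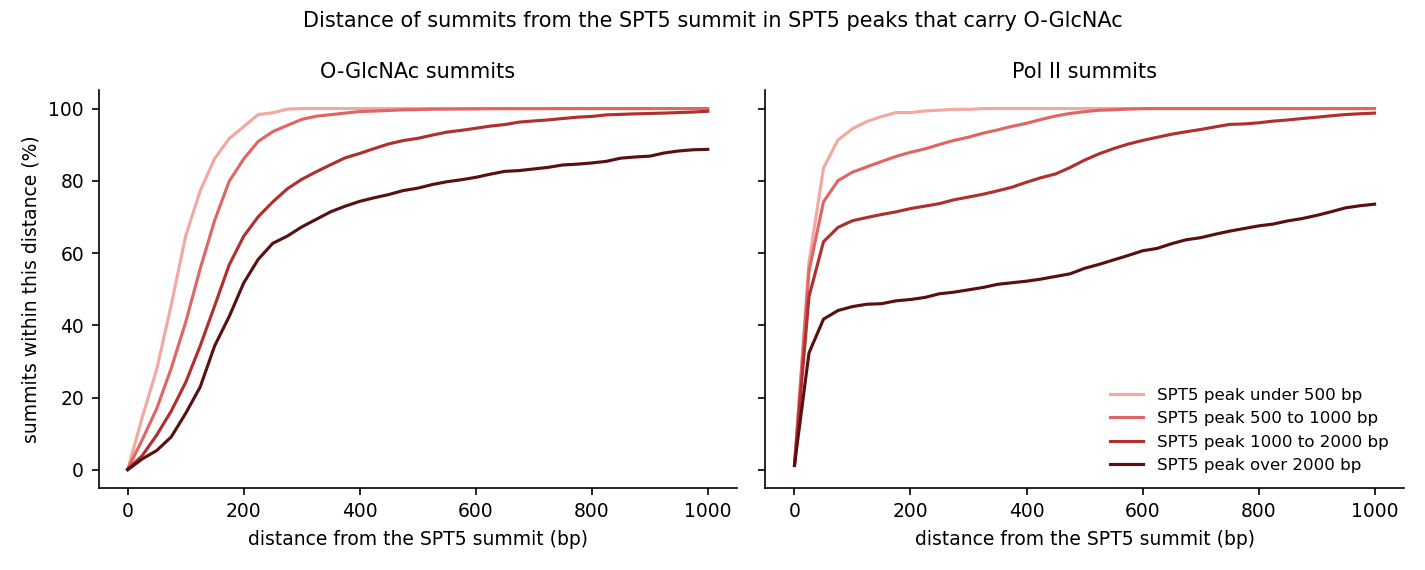
The cumulative share (%) of O-GlcNAc summits (left) and Pol II summits (right) within a given distance (bp) of the SPT5 summit, in SPT5 peaks that carry O-GlcNAc, with 1 line for each width class. Over 2000 bp, 5.3% of O-GlcNAc and 41.7% of Pol II summits lie within 50 bp, and 62.7% and 48.7% within 250 bp.

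In SPT5 peaks with 1 peak of each, Pol II was the closer to the SPT5 summit in every width class. Here summits beyond the edge of the SPT5 peak also counted, unlike in the distances above. Under 500 bp only 68.8% of O-GlcNAc summits lay inside, and the median distance of those was 81 bp. In 5740 SPT5 peaks that exactly 1 O-GlcNAc and 1 Pol II peak overlapped, the median distance to the SPT5 summit was 127 bp for O-GlcNAc and 20 bp for Pol II, and the O-GlcNAc and Pol II summits were 149 bp apart. Pol II was the closer in 4664, O-GlcNAc in 1057, and they tied in 19. In the 318 of these over 2000 bp the medians were 150.5 bp and 29 bp, opposite to the order of all summits in that class. With TRIM28 the order depended on width. In 4343 SPT5 peaks with 1 of each, the medians were 133 bp for O-GlcNAc and 123 bp for TRIM28, with TRIM28 closer in 2216 and O-GlcNAc in 2111. Under 500 bp they were 124.5 and 67.5 bp, with TRIM28 closer in 189 of 298, and over 2000 bp 171 and 204 bp, with O-GlcNAc closer in 159 of 281. With OGA, in 548 peaks, they were 147.5 and 143 bp, and the O-GlcNAc and OGA summits were 73.5 bp apart.

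Relative to the whole peak, O-GlcNAc was most central in SPT5 peaks of 500 to 1000 bp. There 78.6% (77.2 to 80.0) of O-GlcNAc summits fell in the central 33.3% of the SPT5 width, compared with 40.8% under 500 bp, 54.9% at 1000 to 2000 bp and 38.2% over 2000 bp. The SPT5 summits of the same peaks were less central at 500 to 1000 bp, with 66.2% in that central stretch, and Pol II summits less still, with 53.9%. The profile across these peaks differed in form. Between 45% and 55% of the width lay 32.3% of O-GlcNAc summits, 17.3% of SPT5 summits and 13.1% of Pol II summits. Between 30% and 40% lay 14.2%, 22.3% and 20.2%, and between 60% and 70% lay 14.1%, 20.2% and 19.1%. O-GlcNAc summits thus had 1 central maximum where SPT5 and Pol II summits were commoner on either side of the centre. This form was not particular to O-GlcNAc. In the same order of stretches, these SPT5 peaks held 33.5%, 12.8% and 13.4% of their 179 OGA summits. For TRIM28 the shares were 21.0%, 16.5% and 16.3%. The central 33.3% of the width held 77.7% of the OGA summits and 64.5% of the TRIM28 summits.

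**Figure D4:**
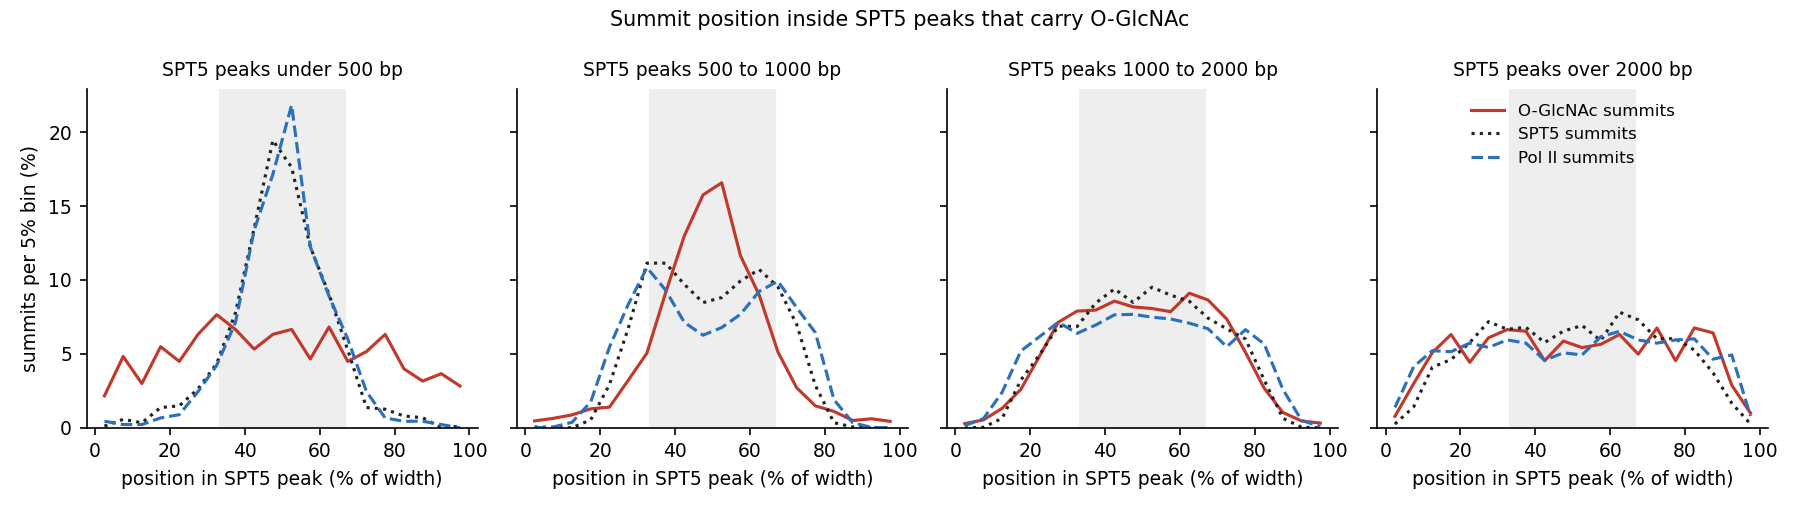
Summit position along the SPT5 peak (% of its width, in steps of 5%) against the share of summits (%), for O-GlcNAc, SPT5 and Pol II in SPT5 peaks that carry O-GlcNAc, in 4 panels by width class with the central 33.3% shaded. At 500 to 1000 bp, 78.6% of O-GlcNAc, 66.2% of SPT5 and 53.9% of Pol II summits fall in the shaded stretch.

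In SPT5 peaks of 500 to 1000 bp O-GlcNAc lay mostly on the longer side of the SPT5 summit. The files carry no strand, so sides were told apart only by length, in SPT5 peaks with 1 O-GlcNAc peak, counting summits within 250 bp of the SPT5 summit where the peak reached at least that far on both sides. At 500 to 1000 bp, 1445 of 1926 (75.0%, 73.0 to 76.9) lay on the longer side, at 1000 to 2000 bp 56.4% (54.0 to 58.6), and over 2000 bp 44.0% (207 of 470, 39.6 to 48.6). For the other targets the count took SPT5 peaks with 1 peak of that target, with or without O-GlcNAc, so the sets of SPT5 peaks differ. The shares were 42.0%, 50.2% and 51.0% for Pol II, 61.2%, 50.4% and 48.4% for TRIM28, and 61.6%, 54.1% and 48.7% for OGA. Counted over the whole peak, 79.9% of O-GlcNAc summits lay on the longer side at 500 to 1000 bp, where that side made up 63.2% of the length. At 1000 to 2000 bp it was 63.9% in 64.8% of the length, and over 2000 bp 49.5% in 69.1%.

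The stretch within 250 bp of the SPT5 summit held most O-GlcNAc summits even in wide domains. Over 2000 bp it held 62.7% of O-GlcNAc summits in 15.3% of the length, 1.46 summits per kb against 0.157 per kb elsewhere in the peak, a ratio of 9.27. In SPT5 peaks of the same class that held each other target, the ratio was 4.71 for Pol II, 3.45 for TRIM28 and 5.30 for OGA. These ratios count every summit, and 56.1% of such peaks with Pol II held 2 or more Pol II peaks, against 14.5% for O-GlcNAc. In peaks over 2000 bp with 1 of each, Pol II was the closer to the SPT5 summit, at a median of 29 bp against 150.5 bp. At 1000 to 2000 bp the stretch held 74.1% of O-GlcNAc summits in 36.7% of the length, and the ratios were 4.95 for O-GlcNAc, 5.13 for Pol II, 2.83 for TRIM28 and 4.65 for OGA. At 500 to 1000 bp they were 8.47, 5.91, 3.73 and 6.91. Under 500 bp the order was the opposite, with 2.82 for O-GlcNAc against 5.45, 6.08 and 7.73, though little of such a peak lies outside the stretch.

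Sites of typical height give examples, chosen by height and not by summit position. The SPT5 peak on chromosome 3 from 186287801 to 186288769, 969 bp wide with a fold enrichment of 8.38, had its SPT5 summit at 28.1% of its width. Its O-GlcNAc summit lay 199 bp away at 48.6%, between Pol II summits 7 bp from the SPT5 summit and 498 bp from it. On chromosome 1 from 85155702 to 85156748 the O-GlcNAc summit was 202 bp from the SPT5 summit, with Pol II 40 bp away on the other side. In a wide peak on chromosome 11 from 67116656 to 67121590, 4935 bp with a fold enrichment of 9.96, the O-GlcNAc summit was 150 bp from the SPT5 summit at 90.6% of the width, with Pol II 29 bp away on the other side. In a narrow peak on chromosome 12 from 122277540 to 122277834, 295 bp with a fold enrichment of 3.99, it was 137 bp away. This distance and that of 199 bp on chromosome 3 were above the upper quartiles of their width classes, 122 and 162 bp.

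O-GlcNAc lay on the higher SPT5 peaks. Their median fold enrichment was 8.69 (8.61 to 8.78), with 80% of peaks from 4.28 to 13.5, and that of SPT5 peaks without O-GlcNAc was 3.14 (3.13 to 3.15), with 80% from 2.37 to 5.79. Their median widths were 932 and 365 bp. The difference was present in each width class: 3.99 against 2.91 under 500 bp, 8.38 against 3.73 at 500 to 1000 bp, 9.65 against 4.93 at 1000 to 2000 bp, and 10.1 against 6.37 over 2000 bp. When SPT5 was shortened to its 8988 strongest peaks by −log10 p, to match the length of the O-GlcNAc list, 65.8% carried O-GlcNAc and the difference in median fold enrichment was 0.289, against 5.56 in the whole list. The ranges overlapped fully at the top, where the highest peak with O-GlcNAc had 28.1 and the highest without had 28.0.

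The share with O-GlcNAc was concentrated in the upper part of the SPT5 height range. In 10 equal groups by SPT5 fold enrichment it was 2.55% in the lowest, between 1.15% and 2.22% in the next 5, and then 3.95%, 14.8%, 46.1% and 66.6%. It was not complete even among the highest, with 59 of the top 100 (59.0%, 49.2 to 68.1) and 650 of the top 1000. The 3 highest with O-GlcNAc were on chromosome 11 from 118963689 to 118966730 (28.1), chromosome 17 from 26903045 to 26905016 (25.2) and chromosome 6 from 122792639 to 122793425 (24.6). Their O-GlcNAc summits were 131, 84 and 32 bp from the SPT5 summit, with fold enrichments of 9.36, 3.36 and 5.34. The 3 highest without were on chromosome 17 from 4242909 to 4246294 (28.0), chromosome 19 from 42055155 to 42056393 (24.9) and chromosome 14 from 106815755 to 106816872 (24.9). The last of these carried Pol II at a fold enrichment of 18.0, and the site on chromosome 19 at 21.4.

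In every width class O-GlcNAc was most frequent on the highest SPT5 peaks, and among those its share also differed by width. In the highest of 5 equal groups by SPT5 fold enrichment (5.74 to 28.1), the share with O-GlcNAc was 34.1% (30.6 to 37.9) under 500 bp, 60.2% (58.8 to 61.6) at 500 to 1000 bp, 61.6% (60.1 to 63.1) at 1000 to 2000 bp and 42.4% (40.1 to 44.7) over 2000 bp. In the next group down it was 6.21%, 13.3%, 9.26% and 6.53%, and in the middle group 1.58%, 3.26%, 1.78% and 1.33%. The share did not rise steadily with height: at 1000 to 2000 bp it was 10.9% in the lowest group and 1.60% in the second. The lower share of the widest class thus remained in the upper 2 height groups and, on few peaks, in the middle group (1 of 75 against 9 of 506). In the lowest 2 the widest class was above the class of 1000 to 2000 bp, on few peaks: 3 of 8 against 12 of 110, and 2 of 26 against 3 of 188. It was also present in the highest 10% of SPT5 peaks, where class medians of fold enrichment were 10.5, 11.1, 11.3 and 11.4 and the shares were 45.0%, 69.2%, 70.1% and 55.4% (52.2 to 58.6). With Pol II present and SPT5 fold enrichment of 10.8 to 28.1, the shares were 49.1%, 70.7%, 71.9% and 58.5%.

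**Figure D5:**
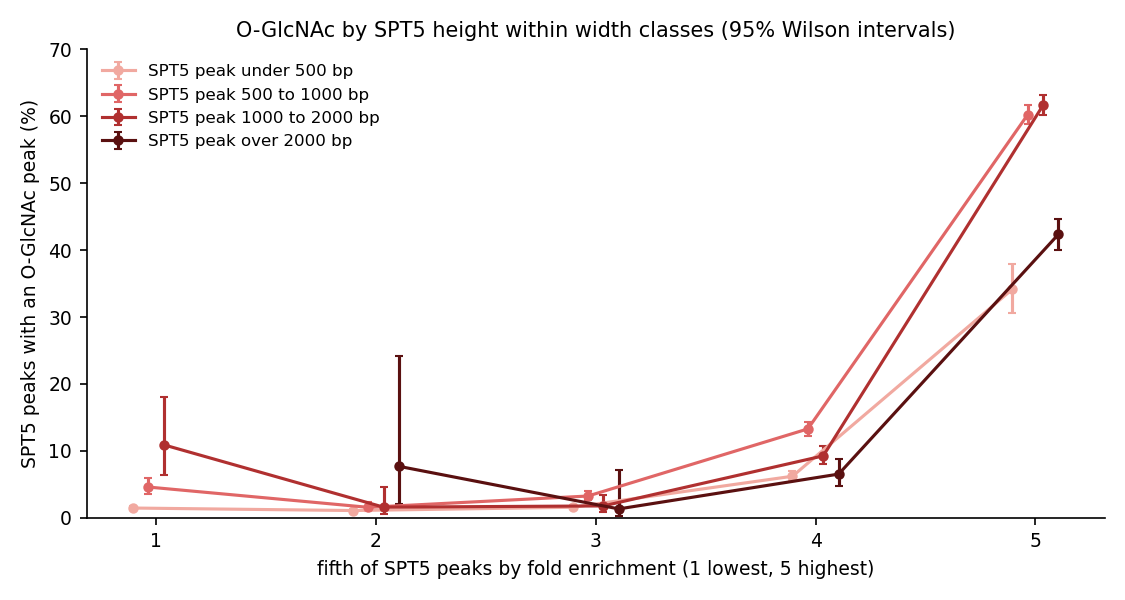
The share (%) of SPT5 peaks with O-GlcNAc (points with 95% Wilson intervals) in 5 equal groups of SPT5 fold enrichment, with 1 line for each width class and classes of fewer than 20 peaks left out. In the highest group the share is 34.1% under 500 bp, 60.2% at 500 to 1000 bp, 61.6% at 1000 to 2000 bp and 42.4% over 2000 bp.

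The height of the O-GlcNAc peak itself followed SPT5 height little. Over the 8126 pairs Spearman's rho between the fold enrichments was -0.0476 and Pearson's r of their log2 values was 0.0389, given as a description across sites of the same 2 libraries. Under 500 bp they were 0.244 and 0.319 over 874 pairs. The median O-GlcNAc fold enrichment fell from 4.31 (4.13 to 4.48) on SPT5 peaks under 500 bp through 4.06 and 3.82 to 3.54 (3.43 to 3.65) over 2000 bp, opposite to the order of SPT5 height. The 3 highest O-GlcNAc peaks on SPT5 lay on chromosome 19 from 6199405 to 6199984 (18.5), chromosome 19 from 35167873 to 35168607 (17.3) and chromosome 6 from 131949072 to 131949587 (15.1). Their SPT5 peaks had fold enrichments of 8.35, 6.62 and 7.65, all under the median of SPT5 peaks with O-GlcNAc.

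The lowest SPT5 peaks departed from the general order with height. In the lowest 10% of SPT5 peaks by fold enrichment, 140 peaks had O-GlcNAc, and 81 of these had an SPT5 fold enrichment under 2. Below 2, 81 of 829 SPT5 peaks carried O-GlcNAc (9.77%, 7.93 to 12.0), against 240 of 19681 (1.22%) from 2 to 3. Only 4 of the 81 carried Pol II. In 87 of the 8126 pairs both fold enrichments were under 2, and 48 of the 87 lay in 2 windows of 1 Mb. One held 29 pairs on chromosome 16 between 46386075 and 46435558, including the SPT5 peak with 5 O-GlcNAc peaks, and the other held 19 pairs on chromosome 2 between 92290514 and 92325339. Identical values recurred among the 87 pairs: SPT5 1.61054 with O-GlcNAc 1.32495 was found on chromosome 1 and on chromosome 6. Whether these low pairs mark binding of both targets was not tested. When peaks under a fold enrichment of 2 were left out of both lists, each of the 11 overlap, position and height measures recomputed stayed within its 95% interval; this setting was chosen after seeing the data.

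O-GlcNAc peaks away from SPT5 were nearly as high in fold enrichment as the others, but narrower and with a lower −log10 p. The 1041 without SPT5 had a median fold enrichment of 3.77 (3.69 to 3.86), and the 7947 with SPT5 had 3.89 (3.85 to 3.94), with overlapping intervals. The sign of this difference, 0.126 with minus without, turned to -0.0345 at a −log10 q of at least 5 and to -0.0592 with SPT5 shortened to its 8988 strongest peaks. Median widths were 233 bp (226 to 237) and 397 bp. Of O-GlcNAc peaks under 500 bp 84.6% overlapped SPT5, and of those of 500 to 1000 bp 98.8%. In 10 equal groups by O-GlcNAc fold enrichment the share on SPT5 was 92.5% in the lowest, 83.7% to 85.3% from the third to the sixth, and 92.8% in the highest. Few of the 1041 overlapped any other target: 20 had Pol II (1.92%), 81 TRIM28 (7.78%), 25 OGA (2.40%) and 928 none of these (89.1%, 87.1 to 90.9). On SPT5, 91.6% of O-GlcNAc peaks had Pol II, 67.2% TRIM28 and 7.29% OGA.

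These O-GlcNAc peaks were also far from SPT5 in most cases. The gap to the nearest SPT5 peak had a median of 39496 bp (33932 to 44935), and 56 (5.38%) lay within 1000 bp, 256 (24.6%) within 10000 bp and 737 (70.8%) within 100000 bp. The 3 highest were on chromosome 19 from 8617586 to 8618026 (17.8), chromosome 1 from 228361673 to 228362337 (17.0) and chromosome 1 from 177953309 to 177953686 (16.0). The last overlapped an OGA peak of fold enrichment 9.01 with its summit 13 bp from the O-GlcNAc summit.

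Chromosome 19 had the highest share of SPT5 peaks with O-GlcNAc. The share ran from 11.4% to 22.9% over the 22 autosomes with a median of 13.2%. On chromosome 19 it was 794 of 3473 (22.9%, 21.5 to 24.3), and the next, chromosome 9, had 16.9%. It was also high there among SPT5 peaks with Pol II, 61.0% against a median of 42.9% over autosomes. By width class on chromosome 19 the shares were 7.0%, 36.0%, 47.7% and 40.8%, each above that of all autosomes. The share of O-GlcNAc peaks on SPT5 varied less, from 82.7% on chromosome 20 to 91.8% on chromosome 6.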

How the data were processed

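ChIP-seq peak lists of SPT5 and O-GlcNAc were compared in 1 library each, and lists of Pol II, TRIM28 and OGA described the same sites. Data from the 2 IgG libraries were not used here. The submitters' processing notes name bcl2fastq 2.17, Trimmomatic 0.30, Bowtie2 2.1.0 and the build hg19. The sources used here do not give the peak caller, its control or its threshold. Files deposited by the authors give each peak's fold enrichment (a ratio), its −log10 p and −log10 q and its summit position. The smallest deposited −log10 q was 1.30 for SPT5 and 1.31 for O-GlcNAc. Peaks were called per sample. Total reads were not used, so the depth of the libraries is unknown.

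Peaks of chromosomes 1 to 22 were paired when they overlapped by at least 1 bp. A width of exactly 2000 bp belongs to the class of 1000 to 2000 bp. Summits of a target were counted in every SPT5 peak that they fall in. In the comparison of SPT5 peaks with 1 peak of each target, summits beyond the SPT5 edge also counted. Wilson and order-statistic intervals are at 95%. The alternatives were overlap of 50% of the shorter peak, −log10 q of at least 5 in both lists, the O-GlcNAc summit inside the SPT5 peak, the SPT5 list shortened to 8988 peaks, SPT5 peaks merged within 500 bp and chromosome X added. Leaving out peaks under a fold enrichment of 2 was chosen after seeing the data. The members, classes and measures were chosen with earlier results of these data known. Named sites are the 3 SPT5 peaks with the most O-GlcNAc peaks (ties, here among 15 peaks, by greater width), the 3 highest of each list with and without the other target, the 2 widest SPT5 peaks with and without O-GlcNAc, and, in each width class, the SPT5 peak with 1 O-GlcNAc peak nearest to the median height. No hg19 gene annotation was used, so sites carry no gene names.

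The calculations were tested on simulated data: 5000 SPT5 peaks planted with O-GlcNAc were recovered as 5000. In the real lists the code used here and bedtools 2.31.1 both counted 7766 SPT5 peaks with O-GlcNAc. Python 3.11.15, numpy 2.4.6, pandas 2.3.3, scipy 1.17.1 and matplotlib 3.10.9 were used.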

Additional observations from a re-analysis of the deposited data

Results flagged for a closer look

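Peaks outside chromosomes 1 to 22 entered no comparison, and signal was present there. On chromosome X 210 of 1155 SPT5 peaks carried O-GlcNAc (18.2%, 16.1 to 20.5), and 213 of 263 O-GlcNAc peaks lay on SPT5 (81.0%).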

How the results depend on the processing

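Of 77 values recomputed (11 measures under 7 settings), 43 moved by less than their interval, 32 moved by more and 2 changed sign; where no construction is named, the cause was not tested. Adding chromosome X moved none of the 11. With a −log10 q of at least 5 (36801 SPT5 and 7939 O-GlcNAc peaks), 19.0% of SPT5 peaks carried O-GlcNAc and 89.1% of O-GlcNAc peaks lay on SPT5; the shares were 4.33% under 500 bp, 37.5% at 1000 to 2000 bp and 29.4% over 2000 bp, 3.04% held 2 or more, the difference in median SPT5 fold enrichment (main 5.56) was 5.11, and that in O-GlcNAc fold enrichment changed sign, from 0.126 to -0.0345. With 50% of the shorter peak overlapped, the shares were 13.8%, 87.2% and, under 500 bp, 2.29%. With the O-GlcNAc summit inside the SPT5 peak they were 13.5%, 86.0% and 1.87%, with an SPT5 difference of 5.68. With SPT5 shortened to its 8988 strongest peaks, which removes most narrow and low ones, they were 65.8% and 69.0%; by class 56.4%, 69.5%, 68.0% and 52.2%, 5.10% held 2 or more, the summit distance was 141 bp, 63.5% were central, the SPT5 difference was 0.289 and the O-GlcNAc difference -0.0592. With SPT5 peaks merged within 500 bp (38356 peaks), 19.5% carried O-GlcNAc; by class 3.37%, 32.2%, 37.6% and 29.5%, 5.48% held 2 or more, the distance was 139 bp and 56.7% were central. The share was lower over 2000 bp than at 1000 to 2000 bp in all 7 settings, while the maximum moved to 500 to 1000 bp with SPT5 shortened. No paired analysis was possible because each target has 1 library. Depth is unknown, so peaks missed in a shallow library cannot be told apart from sites without the target.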
